A study of Mus musculus with 108 samples.

Results

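The expression of 46 cell cycle genes was examined in single cells of germline stem cell-like cells (GSCLCs) and germline stem cells (GSCs) of the mouse. The genes formed an S phase set of 22 genes and a G2/M set of 24 genes, chosen by symbol from known function, and all 46 were found among the 26218 genes measured. GSCs are spermatogonial stem cells kept in culture, and GSCLCs are the counterparts labelled GSC-like cells. The GSCLC lines were GSCLC1 with 30 cells and GSCLC4 with 24 cells, and the GSC lines were GSC1 with 29 cells used and GSC2 with 24. Every line carried the AcrAct_EGFP reporter on the background 129/SvJcl x C57BL/6. All were cultured with GDNF, bFGF, LIF and EGF, and cells were dispersed with trypsin before SC3-seq, which amplifies and reads transcript 3′ ends of 1 cell. For GSCLC4 the labels give a reconstituted testis culture of 3 weeks at 34 °C, and for GSC2 a derivation of its own from testes of postnatal day 7. No such origin is stated for GSCLC1 or GSC1, and the labels do not say whether a line is 1 clone.

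Cells copy their DNA in S phase and divide it in M phase, after the gap called G2. Before S phase, Cdc6 and Cdt1 load the MCM helicase onto origins, and E2F transcription factors drive many of the genes for replication. From late S phase on, another program raises cyclins B and A, the kinase Cdk1 and the genes of the spindle. Many promoters of that program hold a CHR element and CCAAT boxes, where MuvB complexes with B-MYB or FOXM1 and the factor NF-Y bind. Spermatogonial stem cells in culture divide, so both programs run in such cells, each at its own time within a cell's cycle.

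RefSeq promoters of GRCm38.p6, from 250 bases before to 50 bases after the start, were matched for 38 of the 46 genes, which had 40 promoters. Aurkb, Ccna2, Ccne2, Gins2, Kif20a, Mcm4, Tipin and Tpx2 were not matched. CHR letters (TTTGAA or TTCGAA, both strands) stood in 15 of 20 G2/M promoters (75%) and in 4 of 20 S phase promoters (20.0%), against 19.2% of all 32851 promoters of the same length. CCAAT stood in 18 G2/M promoters (90%) and in 13 S phase promoters (65%), against 37.4% of all. CHR and CCAAT letters together stood in 15 G2/M promoters (75%) and 3 S phase promoters (15.0%), against 7.52% of all. E2F letters (TTTCGCGC, TTTGGCGC, TTTCCCGC or TTTGGCGG) stood in 7 S phase promoters (35.0%) and 1 G2/M promoter (5.00%), that of Cdk1, against 2.37% of all. The median GC content was 58.3% for G2/M promoters and 57.5% for S phase promoters, against 52.7% for all. A match is a description of letters and not a bound site.

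**Figure D1:**
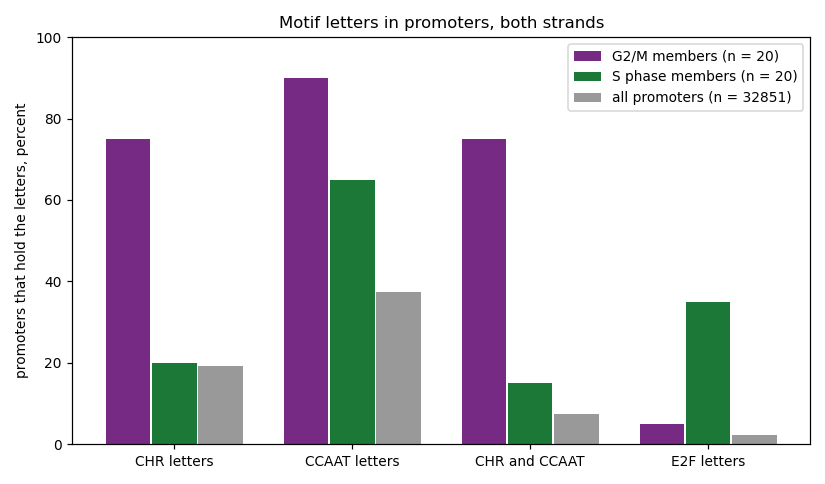
Bars give the percent of promoters that hold the letters of each motif, for 20 G2/M promoters, 20 S phase promoters and all 32851 promoters. CHR and CCAAT letters together reach 75% in the G2/M set, 15.0% in the S phase set and 7.52% in all.

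The promoters below belong to the members whose level followed the rest of their set most closely over cells, and Mcm6 was added after the values were seen because its promoter holds E2F letters. All lie on the minus strand, and capitals mark E2F, CHR or CCAAT letters on either strand. Positions are chr2:132253131-132253430 for Pcna, chr16:18811923-18812222 for Cdc45, chr1:128359656-128359955 for Mcm6, chr7:135716330-135716629 for Mki67, chr11:99024140-99024439 for Top2a and chr13:100786437-100786736 for Ccnb1.
Pcna: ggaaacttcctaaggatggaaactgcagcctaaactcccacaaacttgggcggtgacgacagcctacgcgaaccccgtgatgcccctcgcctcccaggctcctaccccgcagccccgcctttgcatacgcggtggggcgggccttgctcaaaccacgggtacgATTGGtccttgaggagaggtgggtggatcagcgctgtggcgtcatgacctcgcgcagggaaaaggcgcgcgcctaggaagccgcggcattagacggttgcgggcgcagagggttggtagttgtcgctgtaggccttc
Cdc45: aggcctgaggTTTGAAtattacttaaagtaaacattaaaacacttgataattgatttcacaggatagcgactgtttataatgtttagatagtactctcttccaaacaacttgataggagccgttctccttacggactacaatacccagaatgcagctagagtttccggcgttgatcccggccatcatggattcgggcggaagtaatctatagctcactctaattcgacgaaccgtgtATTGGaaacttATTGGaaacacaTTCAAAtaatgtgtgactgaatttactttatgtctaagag
Mcm6: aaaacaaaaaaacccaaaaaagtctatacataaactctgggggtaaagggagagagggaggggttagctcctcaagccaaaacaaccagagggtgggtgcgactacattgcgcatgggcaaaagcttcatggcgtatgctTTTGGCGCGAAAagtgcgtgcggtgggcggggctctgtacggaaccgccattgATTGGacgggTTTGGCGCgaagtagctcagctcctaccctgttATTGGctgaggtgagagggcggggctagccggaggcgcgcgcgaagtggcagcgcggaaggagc
Mki67: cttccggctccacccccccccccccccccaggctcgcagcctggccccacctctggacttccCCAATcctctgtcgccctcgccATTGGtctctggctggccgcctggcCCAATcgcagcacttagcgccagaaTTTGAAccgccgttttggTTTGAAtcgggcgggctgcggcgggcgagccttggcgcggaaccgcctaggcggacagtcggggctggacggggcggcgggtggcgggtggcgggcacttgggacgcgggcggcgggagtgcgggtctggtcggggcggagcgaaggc
Top2a: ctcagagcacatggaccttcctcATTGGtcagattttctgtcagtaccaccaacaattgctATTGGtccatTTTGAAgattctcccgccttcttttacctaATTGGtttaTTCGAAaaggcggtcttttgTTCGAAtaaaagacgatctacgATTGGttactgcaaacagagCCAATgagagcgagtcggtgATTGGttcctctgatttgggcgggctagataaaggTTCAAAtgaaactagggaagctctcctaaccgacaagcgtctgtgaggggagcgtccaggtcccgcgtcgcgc
Ccnb1: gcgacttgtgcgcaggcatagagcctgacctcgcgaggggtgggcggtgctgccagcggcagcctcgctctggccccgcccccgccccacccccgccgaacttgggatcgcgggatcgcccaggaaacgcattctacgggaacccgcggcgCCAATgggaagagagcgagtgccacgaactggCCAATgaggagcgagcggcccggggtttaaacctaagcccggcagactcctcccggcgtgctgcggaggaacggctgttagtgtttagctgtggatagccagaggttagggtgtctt
Mcm6 holds E2F letters at 3 places, the first 2 of which overlap, and has no CHR letters in this window. Top2a holds 4 CHR and 6 CCAAT matches, and Mki67 2 CHR and 3 CCAAT matches. Cdc45, an S phase member, holds 2 CHR and 2 CCAAT matches, and Ccnb1, a G2/M member, 2 CCAAT matches and no CHR letters.

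Estimated depth was 2.00 M to 6.04 M reads per cell, so a level of 5 RPM (read counts scaled to the depth of a cell) stood for about 10 to 30 reads. The median cell had 8607 detected genes in GSCLC1 and 9866 in GSCLC4, against 8811 in GSC1 and 9181.5 in GSC2. Summed over 11 germ cell markers, the line means were 6419 RPM in GSCLC1 and 6007 RPM in GSCLC4, against 5860.1 RPM in GSC1 and 5978 RPM in GSC2, with no marker at 0 in all lines. Fibroblast markers, 11 genes with Lum at 0 in every line, summed to 242 and 358 RPM in GSCLC1 and GSCLC4, against 573 and 413 RPM in GSC1 and GSC2. Cells ranged from 23.5 to 972 RPM of these markers over both GSCLC lines and from 58.6 to 4132 RPM over both GSC lines, and 1 of the 6 tested, S100a6, was lower in GSCLC lines (limma adjusted p = 0.0386). The differences of the 6 had both signs: 2 were positive, and they ran from log2 -1.79 to 2.40, GSCLC minus GSC. Sertoli markers (10 genes, Amh and Gata1 at 0) summed to 29.6 and 96.4 RPM in GSCLC1 and GSCLC4, against 35.4 and 6.69 RPM in GSC1 and GSC2. Leydig and peritubular markers (8 genes, Cyp11a1 at 0) summed to 15.3 and 14.7 RPM in GSCLC1 and GSCLC4, against 42.3 and 54.6 RPM in GSC1 and GSC2. Blood and endothelial markers (6 genes, Emr1 at 0) summed to 9.65 and 23.3 RPM in GSCLC1 and GSCLC4, against 19.7 and 13.5 RPM in GSC1 and GSC2. Their part in the results on cell cycle genes was not tested. A further GSC1 cell stood apart with 5748 detected genes and summed levels of 393 RPM for the S phase set and 30.0 RPM for the G2/M set, and was left out.

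Among the genes that prepare replication, Mcm2, a subunit of the MCM helicase, averaged 723 RPM in GSCLC1 and 788 RPM in GSCLC4, against 512 RPM in GSC1 and 715 RPM in GSC2. Over cells, Mcm2 ran from 90.2 to 2121 RPM (median 637 RPM) in GSCLC1 and from 92.5 to 1764 RPM (median 663 RPM) in GSCLC4, against 120.6 to 1466 RPM (median 412 RPM) in GSC1 and 199.8 to 1551 RPM (median 666 RPM) in GSC2. No cell of any line was without Mcm2 reads, and the ranges of the 4 lines overlapped widely. Line means of the other helicase subunits Mcm3, Mcm4, Mcm5, Mcm6 and Mcm7 lay between 185.9 and 434 RPM, with Mcm6 at 417 RPM in GSCLC1 and 387 RPM in GSCLC4, against 333 RPM in GSC1 and 344 RPM in GSC2. Cdt1, a loader of the helicase, averaged 273 RPM in GSCLC1 and 216 RPM in GSCLC4, against 239.8 RPM in GSC1 and 291 RPM in GSC2. Cdc6, the other loader, was seen in fewer cells and averaged 39.8 RPM in GSCLC1 and 34.5 RPM in GSCLC4, against 20.7 RPM in GSC1 and 38.7 RPM in GSC2. Over cells, Cdc6 ran from 0 to 217 RPM (median 9.02 RPM) in GSCLC1 and from 0 to 229 RPM (median 1.67 RPM) in GSCLC4, against 0 to 229 RPM (median 0 RPM) in GSC1 and 0 to 182.8 RPM (median 11.9 RPM) in GSC2. The median cell of GSC1 thus had no Cdc6 read, while single cells of each line passed 180 RPM.

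Of the genes at the fork, Pcna, the sliding clamp of DNA polymerases, averaged 499 RPM in GSCLC1 and 570.5 RPM in GSCLC4, against 485 RPM in GSC1 and 693 RPM in GSC2. Over cells, Pcna ran from 18.7 to 1526 RPM (median 437 RPM) in GSCLC1 and from 75.3 to 1432 RPM (median 490.1 RPM) in GSCLC4, against 74.99 to 1162 RPM (median 373 RPM) in GSC1 and 74.5 to 1414 RPM (median 661 RPM) in GSC2. Cdc45, which joins the active helicase, averaged 287 RPM in GSCLC1 and 180.1 RPM in GSCLC4, against 134 RPM in GSC1 and 278 RPM in GSC2. GSC1 was the lowest line for both, and the highest was GSC2 for Pcna and GSCLC1 for Cdc45. Gins2, a further helicase partner, averaged 26.8 RPM in GSCLC1 and 28.9 RPM in GSCLC4, against 30.97 RPM in GSC1 and 43.99 RPM in GSC2. Tipin, which protects stalled forks, averaged 325 RPM in GSCLC1 and 388 RPM in GSCLC4, against 237 RPM in GSC1 and 308 RPM in GSC2. The single-strand binding subunit Rpa2, the flap nuclease Fen1 and Dtl, which directs destruction of Cdt1, had line means of 186.3 to 234, 96.5 to 149.1 and 87.4 to 124 RPM. Among the enzymes of nucleotide supply, Rrm1, the large subunit of ribonucleotide reductase, averaged 453 RPM in GSCLC1 and 369.6 RPM in GSCLC4, against 413 RPM in GSC1 and 433 RPM in GSC2, while its small subunit Rrm2 had line means of 25.2 to 34.4 RPM and the thymidylate synthase gene Tyms of 36.1 to 66.6 RPM. Ung, which removes uracil from DNA, ranged from 52.4 to 93.5 RPM over lines. Slbp, which binds histone mRNA, had 396 to 573 RPM, but 29.6% of its nonzero values were no whole number of reads, so its level is uncertain. The cyclin E genes were low: Ccne1 had line means of 31.5 to 52.01 RPM, and Ccne2 averaged 1.85 RPM in GSCLC1 and 0.925 RPM in GSCLC4, against 1.94 RPM in GSC1 and 2.35 RPM in GSC2. Ccne2 was the only member under the 5 RPM filter.

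In the G2/M set, Top2a, the topoisomerase that untangles sister DNA, averaged 463 RPM in GSCLC1 and 474 RPM in GSCLC4, against 495 RPM in GSC1 and 425 RPM in GSC2. Over cells, Top2a ran from 1.15 to 1390.1 RPM (median 363 RPM) in GSCLC1 and from 0.316 to 1193 RPM (median 396 RPM) in GSCLC4, against 2.19 to 1244 RPM (median 496 RPM) in GSC1 and 1.69 to 1065 RPM (median 339 RPM) in GSC2. Each line thus held cells with hardly any Top2a reads beside cells with very many. Mki67, which coats mitotic chromosomes and serves as a proliferation marker, averaged 116.3 RPM in GSCLC1 and 152 RPM in GSCLC4, against 132.7 RPM in GSC1 and 144.4 RPM in GSC2. Over cells, Mki67 ran from 0 to 377 RPM (median 50.2 RPM) in GSCLC1 and from 0 to 800.0 RPM (median 92.98 RPM) in GSCLC4, against 0 to 925 RPM (median 68.8 RPM) in GSC1 and 0 to 586 RPM (median 73.04 RPM) in GSC2. Cyclin B1 (Ccnb1), the mitotic partner of Cdk1, averaged 369 RPM in GSCLC1 and 526 RPM in GSCLC4, against 418 RPM in GSC1 and 375 RPM in GSC2. Of the nonzero Ccnb1 values, 46.3% were no whole number of reads, and for Cks2, a subunit of the Cdk1 complex, 75.9% were not, so both levels are uncertain. Cks2 averaged 606 RPM in GSCLC1 and 926 RPM in GSCLC4, against 722 RPM in GSC1 and 513 RPM in GSC2. Ccna2, the cyclin of S phase and G2, averaged 385 RPM in GSCLC1 and 345 RPM in GSCLC4, against 289.8 RPM in GSC1 and 328 RPM in GSC2, and the kinase gene Cdk1 had line means of 68.1 to 90.2 RPM. Ccnb2, a further B cyclin, had 160 to 205 RPM.

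The kinase genes Plk1 and Aurka reached 5 RPM in fewer cells than Top2a in every line. Plk1, a kinase of mitotic entry, averaged 59.1 RPM in GSCLC1 and 47.4 RPM in GSCLC4, against 31.8 RPM in GSC1 and 26.5 RPM in GSC2. Over cells, Plk1 ran from 0 to 295 RPM (median 52.03 RPM) in GSCLC1 and from 0 to 183.9 RPM (median 33.4 RPM) in GSCLC4, against 0 to 157.2 RPM (median 4.17 RPM) in GSC1 and 0 to 178 RPM (median 10.1 RPM) in GSC2. Both GSCLC means lay above both GSC means of Plk1, while the cells of all lines overlapped. Aurka, the kinase of spindle poles, averaged 25.1 RPM in GSCLC1 and 23.9 RPM in GSCLC4, against 42.98 RPM in GSC1 and 16.1 RPM in GSC2. Over cells, Aurka ran from 0 to 276 RPM (median 0.422 RPM) in GSCLC1 and from 0 to 118.96 RPM (median 2.96 RPM) in GSCLC4, against 0 to 358 RPM (median 0.522 RPM) in GSC1 and 0 to 100.05 RPM (median 1.66 RPM) in GSC2. The median cell thus had under 3 RPM of Aurka in every line. Aurkb, the kinase of the chromosomal passenger complex, averaged 104 RPM in GSCLC1 and 82.4 RPM in GSCLC4, against 83.9 RPM in GSC1 and 115.5 RPM in GSC2, and Birc5, survivin of the same complex, averaged 78.7 RPM in GSCLC1 and 78.1 RPM in GSCLC4, against 34.2 RPM in GSC1 and 88.4 RPM in GSC2. The checkpoint genes Bub1 and Bub1b had line means of 135.5 to 198 and 65.9 to 105.3 RPM. The anaphase genes Cdc20 and Ube2c, which give the ubiquitin ligase APC/C its activator and its E2 enzyme, had 114.1 to 164.3 and 212 to 315 RPM. The centromere genes Cenpa, Cenpe and Cenpf had 161.1 to 253, 71.9 to 139 and 211 to 251 RPM. The motors Kif11, Kif20a and Kif23 had 31.9 to 56.4, 6.84 to 9.62 and 54.97 to 92.2 RPM. The spindle genes Tpx2, Nusap1 and Hmmr had 34.7 to 55.9, 84.7 to 94.3 and 15.5 to 34.5 RPM. SC3-seq counts 3′ ends, so these values were not divided by transcript length.

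**Figure D2:**
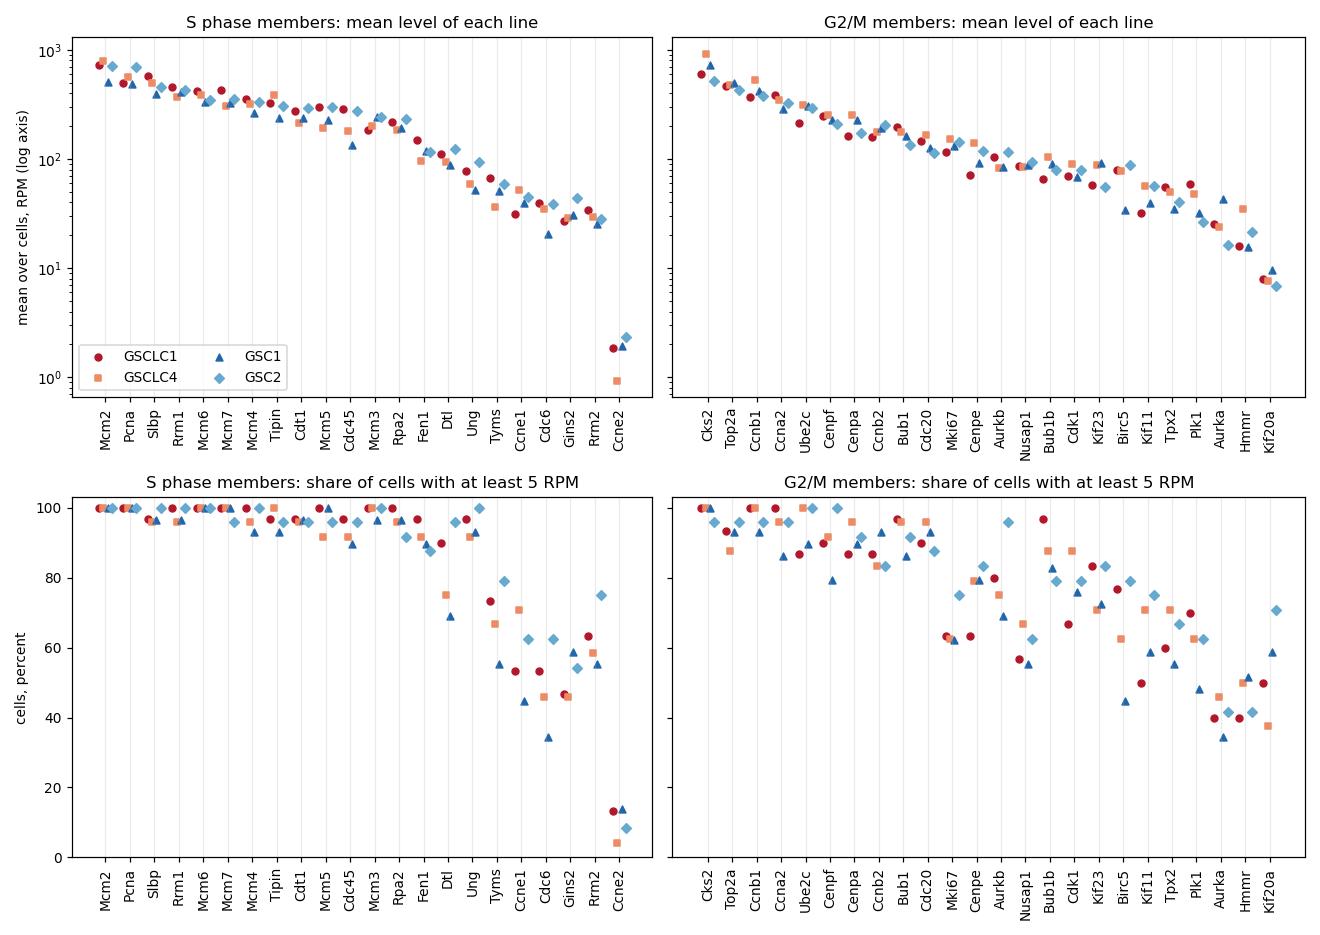
Points give the mean level of each line in RPM (top, log axis) and the percent of its cells with at least 5 RPM (bottom) for each S phase gene (left) and G2/M gene (right), ordered by mean level. Symbols are GSCLC1, GSCLC4, GSC1 and GSC2. Ccne2 is the lowest gene, and Aurka, Hmmr and Kif20a are the lowest of the G2/M set.

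At least 5 RPM was reached in at least 90% of the cells of every line by 13 of 22 S phase genes but by 2 of 24 G2/M genes, Ccnb1 and Cks2. Of the nonzero values of these 2 genes, 46.3% and 75.9% were no whole number of reads, so their shares are uncertain. In at least 50% of the cells of every line it was reached by 18 S phase and 19 G2/M genes. The exceptions were Ccne1, Ccne2, Cdc6 and Gins2 among S phase genes and Aurka, Birc5, Hmmr, Kif20a and Plk1 among G2/M genes. Pcna passed this level in every cell used. Mki67 passed it in 63.3% (95% interval 43.9 to 80.1%) of GSCLC1 cells and 62.5% (95% interval 40.6 to 81.2%) of GSCLC4 cells, against 62.1% (95% interval 42.3 to 79.3%) of GSC1 cells and 75% (95% interval 53.3 to 90.2%) of GSC2 cells. Plk1 passed it in 70% (95% interval 50.6 to 85.3%) of GSCLC1 cells and 62.5% (95% interval 40.6 to 81.2%) of GSCLC4 cells, against 48.3% (95% interval 29.4 to 67.5%) of GSC1 cells and 62.5% (95% interval 40.6 to 81.2%) of GSC2 cells. These intervals are exact binomial ones (Clopper-Pearson), cover counting error only, and overlap between all lines for both genes. With every cell thinned to the lowest depth, the share of cells with any Plk1 read was 86.7% in GSCLC1 and 79.2% in GSCLC4, against 79.3% in GSC1 and 70.8% in GSC2, and that with any Mki67 read 83.3% in GSCLC1 and 83.3% in GSCLC4, against 79.3% in GSC1 and 87.5% in GSC2. The coefficient of variation over cells had a median of 1.06 in GSCLC1 and 1.13 in GSCLC4 for G2/M genes, against 1.12 in GSC1 and 0.869 in GSC2. For S phase genes it was 0.722 and 0.843 in GSCLC1 and GSCLC4, against 0.794 and 0.661 in GSC1 and GSC2. G2/M genes thus varied more over cells than S phase genes in each of the 4 lines, a description over genes of unlike level. The median over all tested genes was 1.33 and 1.09 in GSCLC1 and GSCLC4, against 1.34 and 1.25 in GSC1 and GSC2.

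**Figure D3:**
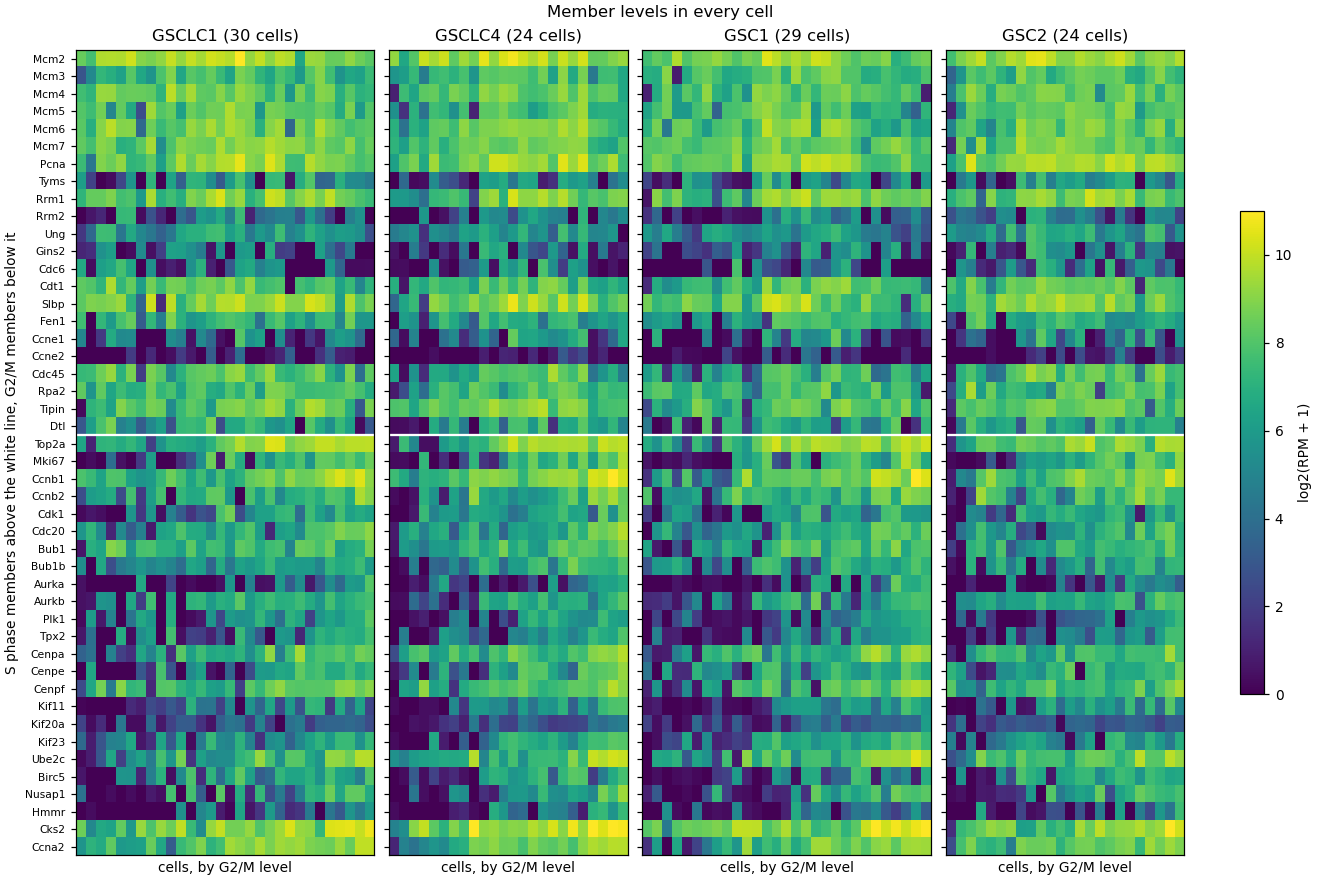
Each column is 1 cell and each row 1 gene, with color giving log2(RPM + 1). Cells of a line are ordered by their G2/M level from left to right. The order uses the G2/M genes themselves, so their brightening toward the right follows from it. The highest G2/M levels are 7.77 in GSCLC1 and 8.61 in GSCLC4, against 7.84 in GSC1 and 7.58 in GSC2, while Mcm2 and Pcna are bright in nearly all cells.

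No S phase or G2/M gene passed the test between GSCLC lines and GSC lines. The test was limma on log2(mean RPM + 1) of the lines, which understates changes of low genes, with Benjamini-Hochberg adjustment over 10519 genes, and 45 of the 46 genes entered it. Of all tested genes, 10 passed (0.0951%), 7 higher and 3 lower in GSCLC lines, and with an unadjusted p under 0.05 there were 939 genes (8.93%), of which 1 was a cell cycle member. That gene was Plk1, with 53.2 ± 8.33 RPM over GSCLC lines and 29.1 ± 3.69 RPM over GSC lines (SD, n = 2 lines each), log2 0.84 ± 0.35 (SE; limma adjusted p = 0.518). The log2 difference was positive for 10 of 21 S phase genes, with a median of -0.03, and for 14 of 24 G2/M genes, with a median of 0.03. Of all 10519 tested genes 5558 had a positive difference, with a median of 0.03. The sign of the members' medians hung on single lines: without GSCLC4 the S phase median was 0.25 and the G2/M median -0.07, and without GSCLC1 they were -0.15 and 0.28. The 2 GSCLC means lay on 1 side of both GSC means for 15 of 45 members (33.3%), against 39.1% of all tested genes. A missed threshold does not show that the types are alike: with 2 lines a type, the SE of the log2 difference was 0.16 (Top2a) to 0.63 (Kif20a) over the tested members. These SEs are drawn by limma toward a trend over all tested genes and are not a gene's own spread alone.

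The S phase differences ran from -0.40 to 0.39. The lowest was that of Gins2, with 27.8 ± 1.51 RPM over GSCLC lines and 37.5 ± 9.21 RPM over GSC lines (SD, n = 2 lines each), log2 -0.40 ± 0.38 (SE; limma adjusted p = 0.825). Tipin, the highest, had 356 ± 44 RPM over GSCLC lines and 272 ± 50.5 RPM over GSC lines (SD, n = 2 lines each), log2 0.39 ± 0.19 (SE; limma adjusted p = 0.586). Neither difference passed the test, although the lines of the types did not overlap for either gene. For Cdc6 the difference was log2 0.37 ± 0.41 (SE; limma adjusted p = 0.848), a value that hung on GSC1: it was -0.06 without that line, -0.10 with GSC1 serials 65 to 80 alone, 1.405 with serials 129 to 150 alone and 0.81 without GSC2. For Mcm3 it was log2 -0.33 ± 0.19 (SE; limma adjusted p = 0.649). Of the genes of highest level, Mcm2 differed by log2 0.32 ± 0.17 (SE; limma adjusted p = 0.630), Slbp by log2 0.32 ± 0.16 (SE; limma adjusted p = 0.601), Pcna by log2 -0.12 ± 0.18 (SE; limma adjusted p = 0.910) and Rrm1 by log2 -0.05 ± 0.17 (SE; limma adjusted p = 0.965). Cdc45 differed by log2 0.24 ± 0.31 (SE; limma adjusted p = 0.888) and Mcm6 by log2 0.25 ± 0.16 (SE; limma adjusted p = 0.704). The replication genes thus had differences of both signs, none past the test.

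The G2/M differences ran from -0.24 to 0.84. After Plk1, Birc5 had 78.4 ± 0.467 RPM over GSCLC lines and 61.3 ± 38.4 RPM over GSC lines (SD, n = 2 lines each), log2 0.50 ± 0.39 (SE; limma adjusted p = 0.756), with the GSC lines far apart. For Tpx2 the difference was log2 0.49 ± 0.32 (SE; limma adjusted p = 0.707), and for Cdc20 it was log2 0.37 ± 0.22 (SE; limma adjusted p = 0.661). The cyclins had log2 0.15 ± 0.19 (SE; limma adjusted p = 0.878) for Ccnb1 and log2 0.24 ± 0.17 (SE; limma adjusted p = 0.733) for Ccna2, and Cks2 had log2 0.30 ± 0.21 (SE; limma adjusted p = 0.733). The differences of Top2a, log2 0.03 ± 0.16 (SE; limma adjusted p = 0.977), and Mki67, log2 -0.06 ± 0.23 (SE; limma adjusted p = 0.970), were the smallest of the G2/M genes given here. None passed the test.

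Lines of 1 type also differed, with no replicate and so no test. Between GSCLC4 and GSCLC1, 14.6% of tested genes differed at least 2-fold, against 0 of 21 S phase genes and 1 of 24 G2/M genes, Hmmr. The median log2 difference, GSCLC4 minus GSCLC1, was -0.21 for S phase genes, 0.16 for G2/M genes and 0.07 for all tested genes. It was positive for 6 of 21 S phase genes, 15 of 24 G2/M genes and 5788 of all 10519 tested genes. Between GSC2 and GSC1, 13.9% of tested genes differed at least 2-fold, against 1 of 21 S phase genes and 2 of 24 G2/M genes. Those were Cdc45 with a log2 difference of 1.04, Birc5 with 1.35 and Aurka with -1.36, GSC2 minus GSC1. Of the S phase genes 20 of 21 were higher in GSC2 than in GSC1, with a median of 0.28, while 11 of 24 G2/M genes were, with a median of -0.10. Of all 10519 tested genes 5481 were higher in GSC2, with a median of 0.02.

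The 22 S phase genes together made up 0.558% of all RPM in GSCLC1 and 0.503% in GSCLC4, against 0.443% in GSC1 and 0.554% in GSC2. The 24 G2/M genes made up 0.379% and 0.465% in GSCLC1 and GSCLC4, against 0.402% and 0.371% in GSC1 and GSC2. These sums include genes of uncertain level, Slbp in the S phase set and Ccnb1 and Cks2 in the G2/M set. Cks2 alone averaged 606 and 926 RPM in GSCLC1 and GSCLC4, of mean G2/M sums of 3795.1 and 4650.5 RPM. In GSC1 and GSC2 it averaged 722 and 513 RPM, of 4025.8 and 3714 RPM. From the lowest to the highest cell the S phase sum differed 5.55-fold in GSCLC1 and 8.20-fold in GSCLC4, against 5.60-fold in GSC1 and 10.1-fold in GSC2. The G2/M sum differed 10.6-fold and 49.1-fold in GSCLC1 and GSCLC4, against 14.9-fold and 20.0-fold in GSC1 and GSC2, so the G2/M set had the wider range in each line. The widest values rested on single cells: without the lowest cell of each line, a choice made after seeing the data, the S phase sum differed 4.81-fold in GSCLC1 and 6.26-fold in GSCLC4, against 4.76-fold in GSC1 and 3.64-fold in GSC2. The G2/M sum then differed 9.94-fold and 19.4-fold in GSCLC1 and GSCLC4, against 13.1-fold and 12.97-fold in GSC1 and GSC2. At least 50% of the S phase genes reached 5 RPM in every cell but 1 of GSC2. At least 50% of the G2/M genes did so in 28 of 30 GSCLC1 cells and 21 of 24 GSCLC4 cells, against 25 of 29 GSC1 cells and 23 of 24 GSC2 cells. Cells that met this measure for the S phase set only numbered 2 in GSCLC1 and 3 in GSCLC4. In GSC1 there were 4 and in GSC2 0. They were not high in S phase genes for their line. Their S phase sums were 2444 and 3258 RPM in GSCLC1 (line median 5725 RPM) and 1214.5 to 2203 RPM in GSCLC4 (line median 4461 RPM). In GSC1 they were 1856 to 3538 RPM (line median 3538 RPM). No cell of any line met it for the G2/M set only. As the S phase set met it in every cell but 1 of GSC2, this outcome was nearly fixed by the measure. It gives no estimate of the share of such cells. These counts rest on transcript levels and do not place a cell in a phase.

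The level of a set in a cell was taken as the mean of log2(RPM + 1) over its genes. Over cells, the S phase and G2/M levels had a Pearson correlation of 0.11 in GSCLC1 and 0.59 in GSCLC4, against 0.36 in GSC1 and 0.51 in GSC2. The Spearman values were 0.11 and 0.42 in GSCLC1 and GSCLC4, against 0.30 and 0.22 in GSC1 and GSC2. The values of GSCLC4 and GSC2 rested in part on a few cells low in both sets. Without the 2 cells lowest in both, a choice made after seeing the data, they were 0.36 in GSCLC4 and 0.04 in GSC2, while GSCLC1 came to -0.08 and GSC1 to 0.24. The lowest GSC2 cell had an S phase level of 3.07 and a G2/M level of 1.52, and the lowest GSCLC4 cell 3.77 and 1.10. The cell of highest G2/M level had a G2/M and an S phase level of 7.77 and 5.43 in GSCLC1 and 8.61 and 5.71 in GSCLC4, against 7.84 and 5.06 in GSC1 and 7.58 and 6.30 in GSC2. Each of these 4 S phase levels lay below its line's median S phase level of 6.74 in GSCLC1 and 6.15 in GSCLC4, against 5.91 in GSC1 and 6.98 in GSC2. The cell of second highest G2/M level also had an S phase level below its line's median, 5.16 in GSCLC1, 6.07 in GSCLC4, 4.94 in GSC1 and 6.00 in GSC2. The next GSCLC1 cells, with G2/M levels of 7.37, 7.30 and 7.28, were mixed, with S phase levels of 6.80, 6.14 and 6.91. These are few cells a line. Cells of 1 line share a culture and each cell is 1 library, so these values carry no p.

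**Figure D4:**
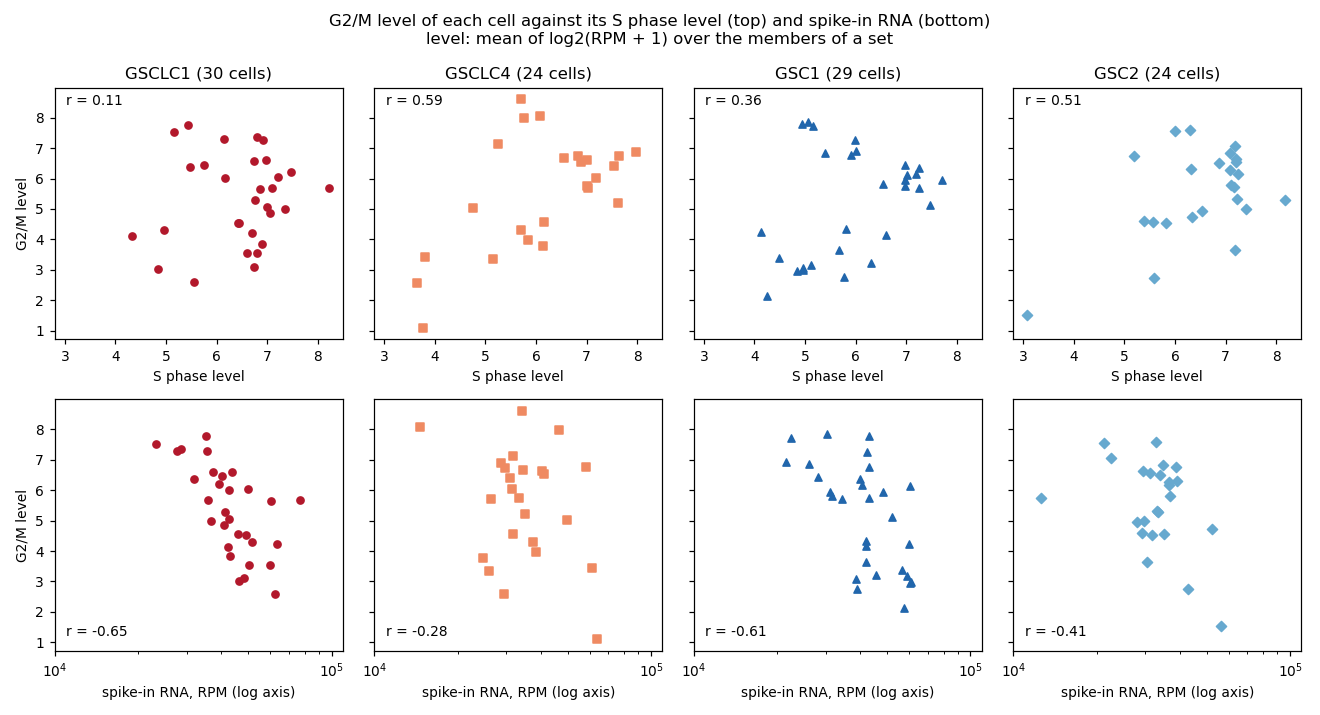
Each point is 1 cell. The top row sets the G2/M level against the S phase level, both as the mean of log2(RPM + 1), with correlations of 0.11 in GSCLC1, 0.59 in GSCLC4, 0.36 in GSC1 and 0.51 in GSC2. The bottom row sets the G2/M level against spike-in RNA in RPM on a log axis, with correlations of -0.65, -0.28, -0.61 and -0.41 in that order of lines.

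Within a set the genes moved together over cells. The median correlation of 2 G2/M genes was 0.35 in GSCLC1 and 0.56 in GSCLC4, against 0.42 in GSC1 and 0.42 in GSC2, and that of 2 S phase genes was 0.24 and 0.44 in GSCLC1 and GSCLC4, against 0.26 and 0.34 in GSC1 and GSC2. Between a gene of each set it was 0.05 and 0.28 in GSCLC1 and GSCLC4, against 0.10 and 0.22 in GSC1 and GSC2, while the median over all pairs of tested genes was between 0.01 and 0.03. All 22 S phase and all 24 G2/M genes had a higher mean correlation over the 4 lines with the rest of their own set than with the other set. This did not hold in every single line. In GSC2, Aurkb had 0.63 with its own set and 0.77 with the other, Cdk1 0.56 and 0.74, and Ccna2 0.63 and 0.72. Also in GSC2, Kif23 had 0.26 and 0.30, and the S phase gene Ccne2 0.42 and 0.47. In GSCLC4, Birc5 had 0.69 and 0.78, and the S phase genes Rpa2 0.65 and 0.68 and Rrm2 0.49 and 0.52. In GSCLC1, the S phase gene Tipin had 0.27 and 0.29. Pcna followed its set most closely, with 0.74 in GSCLC1, 0.72 in GSCLC4, 0.75 in GSC1 and 0.89 in GSC2. Among G2/M genes it was Mki67, with 0.75 in GSCLC1, 0.75 in GSCLC4, 0.72 in GSC1 and 0.83 in GSC2, closely followed by Top2a and Ccnb1, each with a mean of 0.76.

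The G2/M genes differed in how far they went with the S phase level. Aurkb had the highest correlation with it, 0.49 in GSCLC1, 0.78 in GSCLC4, 0.18 in GSC1 and 0.77 in GSC2. Top2a had 0.32 in GSCLC1, 0.59 in GSCLC4, 0.51 in GSC1 and 0.64 in GSC2. The means over lines were 0.50 for Birc5, 0.47 for Ccna2, 0.46 for Cdk1 and 0.44 for Kif23. At the other end, Aurka had -0.27 in GSCLC1, 0.11 in GSCLC4, 0.12 in GSC1 and 0.16 in GSC2, and Cdc20 had -0.13 in GSCLC1, 0.14 in GSCLC4, 0.14 in GSC1 and 0.11 in GSC2. Their means were 0.03 and 0.07, beside 0.08 for Cks2, 0.12 for Ube2c and for Cenpf, and 0.13 for Cenpe and for Plk1. In the S phase set Rrm1 went furthest with the G2/M level, with 0.29 in GSCLC1, 0.57 in GSCLC4, 0.54 in GSC1 and 0.32 in GSC2. The lowest were Ung, with 0.13 in GSCLC1, -0.00072 in GSCLC4, -0.22 in GSC1 and 0.02 in GSC2, and Cdc6, with -0.34 in GSCLC1, 0.19 in GSCLC4, 0.16 in GSC1 and 0.09 in GSC2. Mcm2 and Cdt1, with means of 0.08 and 0.09, were next. The mean of Cdt1 covered values of both signs, -0.31 in GSCLC1, 0.30 in GSCLC4, 0.41 in GSC1 and -0.04 in GSC2. The spread of these values between lines was wide, and no order among neighbours was tested.

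**Figure D5:**
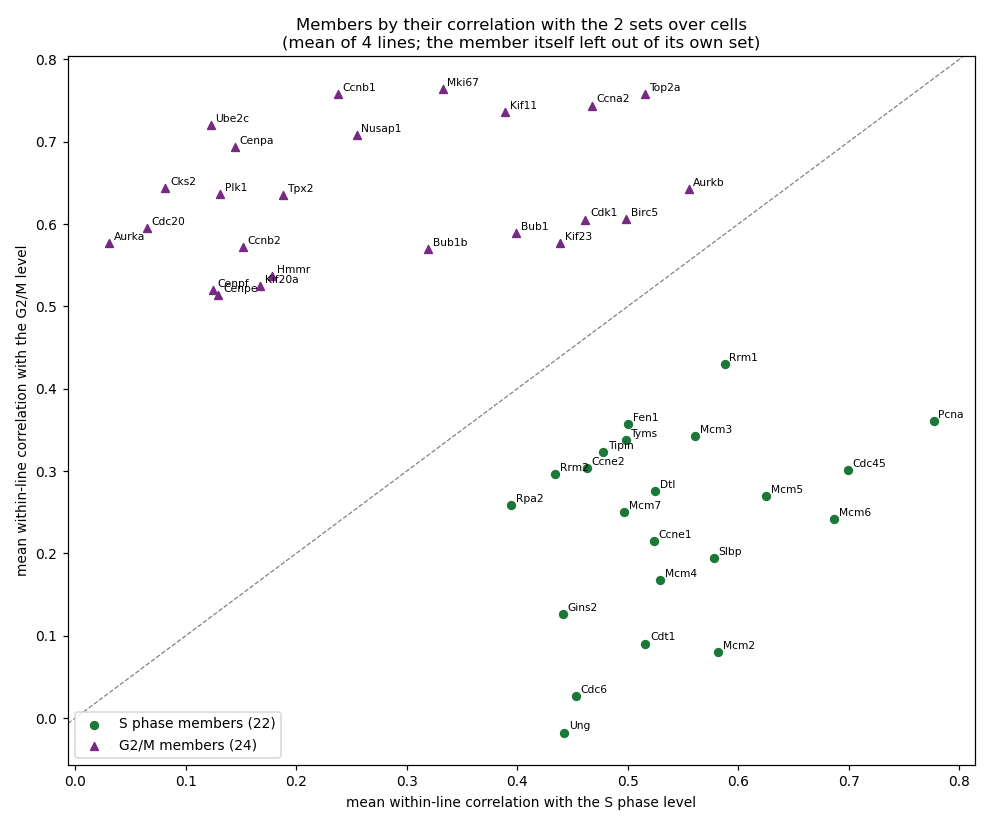
Each point is 1 gene, placed by its mean within-line correlation over cells with the S phase level (x axis) and the G2/M level (y axis), the gene itself left out of its own set. The dashed line marks equal values. All G2/M genes lie above it and all S phase genes below it, with Aurkb at 0.56 and Aurka at 0.03 as the ends of the G2/M set on the x axis.

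The G2/M level had a negative correlation with spike-in RNA in all 4 lines, small in GSCLC4 once the S phase level was taken into account. Spike-in RNA is high where a cell gave little RNA of its own or less of it was captured. The part of either in these levels was not tested. The correlation with log2 spike-in RPM was -0.65 in GSCLC1 and -0.28 in GSCLC4, against -0.61 in GSC1 and -0.41 in GSC2. At least 22 of the 24 G2/M genes had a negative value in each line, while the median over all tested genes was -0.09 and -0.12 in GSCLC1 and GSCLC4, against -0.03 and -0.06 in GSC1 and GSC2. Given the S phase level, the partial correlation was -0.70 in GSCLC1 and -0.11 in GSCLC4, against -0.58 in GSC1 and -0.25 in GSC2. For the S phase level itself the correlation was 0.24 in GSCLC1 and -0.33 in GSCLC4, against -0.25 in GSC1 and -0.42 in GSC2, and so without a common sign. Of the 22 S phase genes, 5 in GSCLC1 and 18 in GSCLC4 had a negative value, against 17 in GSC1 and 21 in GSC2. As the median over all tested genes was negative in every line, a negative value was common among them. Their share was not computed, so the counts of S phase and G2/M genes have no exact background. With the number of detected genes, the G2/M level had correlations of 0.27 and 0.30 in GSCLC1 and GSCLC4, against 0.03 and 0.30 in GSC1 and GSC2, and with log2 estimated reads they lay between -0.09 and 0.14. By title serial numbers, GSC1 holds 2 runs of cells. The 16 cells of serials 129 to 150 had a median G2/M level of 5.88 and the 13 cells of serials 65 to 80 one of 4.33, while the S phase medians were 5.84 and 6.02. Within these runs the correlation of the 2 levels was 0.37 and 0.40.

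Other cell cycle genes were read from lists of related function. None of 42 tested replication factors passed the test, 25 had a positive log2 difference, and the median was 0.08. Pola1, the catalytic subunit of the primase polymerase, had 64.0 and 46.2 RPM in GSCLC1 and GSCLC4, against 21.3 and 27.1 RPM in GSC1 and GSC2 (log2 1.14, limma adjusted p = 0.412). Pole2, a subunit of polymerase epsilon, had a log2 difference of -0.89 (limma adjusted p = 0.663). None of 33 cell cycle transcription factors and kinases passed, with 20 positive and a median of 0.06. The repressor gene E2f7 had 49.9 and 59.9 RPM in GSCLC1 and GSCLC4, against 21.9 and 27.6 RPM in GSC1 and GSC2 (log2 1.12, limma adjusted p = 0.412), and the phosphatase gene Cdc25c a log2 difference of 0.92 (limma adjusted p = 0.679). None of 56 spindle, kinetochore and cytokinesis genes passed, with 26 positive and a median of -0.01. Psrc1, a spindle protein gene, had a log2 difference of -2.0 (limma adjusted p = 0.480), and the motor gene Kif18b one of -1.69 (limma adjusted p = 0.412). None of 10 D-type cyclin and CDK inhibitor genes passed, with 7 positive and a median of 0.43. Cdk6, a kinase of the D-type cyclins, had 20.6 and 22.2 RPM in GSCLC1 and GSCLC4, against 0.613 and 2.16 RPM in GSC1 and GSC2 (log2 3.31, limma adjusted p = 0.17). Both GSC means of Cdk6 lay under the 5 RPM filter, so it entered the test only through the GSCLC lines, where it was high. Its difference, and its part in the median of this list, therefore give no support for a change. The inhibitor gene Cdkn2b had a log2 difference of 0.74 (limma adjusted p = 0.786).

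The genes outside the sets whose level followed the S phase level most closely, by mean within-line correlation, were Rad51ap1 (0.68), Gmnn (0.65), Prim1 (0.65), Pclaf (listed as 2810417H13Rik, 0.64), Clspn (0.64), LOC100861907 (0.63), Esco2 (0.63) and Pbk (0.63). The median over tested genes was 0.04. Gmnn encodes geminin, the inhibitor of Cdt1, Prim1 a primase subunit, and Clspn an adaptor of the replication checkpoint. For the G2/M level they were Ube2s (0.74), Tubb4b (0.73), Cdca3 (0.68), Kif4 (0.66), Gm5593 (0.65), Gm19945 (0.65), Esco2 (0.65) and Hmgb2 (0.64), against a median of 0.04. Gm5593 is annotated in RefSeq as the Ccnb1 pseudogene, and 51.5% of its nonzero values were no whole number of reads, as were 82.7% for Gm19945, so both levels are uncertain. Ube2s works with Ube2c on the APC/C, and Kif4 is a motor of mitotic chromosomes. Esco2, which acetylates cohesin during replication, was among the closest genes of both sets.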

How the data were processed

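The authors deposited 1 table of expression signal in RPM for 26218 genes and 92 spike-in RNAs. In it the gene rows of every cell sum to the same total and the spike-ins come on top. The submitters' processing notes name cutadapt 1.3, TopHat 1.4.1 and Cufflinks 2.2.0 with mm10. The treatment of multi-mapping reads is not given in the material used here. Depth was estimated by reading the commonest nonzero value of a cell as 1 read, giving 2.00 M to 6.04 M reads with a median of 3.45 M. Whole multiples of it, within 0.05 read, made up 85.6% to 92.4% of the values, too few for a count model.

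The culture line was the unit of the tests. The p-values and SEs rest on the spread between 2 lines a type, which limma draws toward a trend over all tested genes. They therefore do not measure a gene's own spread between lines alone. For genes that reached 5 RPM on average in 2 or more lines, log2(mean RPM + 1) was fitted with limma 3.58.1 under R 4.3.3 (eBayes with a trend), GSCLC minus GSC, with Benjamini-Hochberg adjustment and a threshold of 0.05. Gene positions and promoters are from RefSeq, GRCm38.p6.

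Genes given in full were, in each set, the 4 of largest absolute log2 difference, the 4 of highest mean, the 3 of highest correlation with the rest of the set and any under the filter, and from each list the 2 of largest difference. Others are named to place every member by role, and the fuller values of Aurka and those of Cdt1 and Aurkb were added after their values were seen. The members, lists and rules were chosen with earlier results of these data known. Alternatives changed the pseudocount, filter, cell summary, scaling, variance model, and the cells or lines used.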

Additional observations from a re-analysis of the deposited data

How the results depend on the processing

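The count of S phase and G2/M genes past the threshold stayed 0 in all 16 alternatives, with 0 to 4 members at an unadjusted p under 0.05. The 19 members given in full stayed above the threshold in all 285 fits of 1 member, with a lowest limma adjusted p of 0.259, and 9 of the 19 changed sign in at least 1 of them: Birc5, Ccnb1, Cdc45, Cdc6, Cks2, Mki67, Pcna, Rrm1 and Top2a. The count of all genes past the threshold, 10, was less steady. It was 3 with a pseudocount of 0.1, 20 with a pseudocount of 10, 21 with a 20 RPM filter, 3 with a mean trimmed by 10% and 4 or 3 with GSC1 serials 65 to 80 or 129 to 150 alone. With no filter it was 0 (1407 genes at an unadjusted p under 0.05) and without the limma trend 0 (874 genes). Leaving out 1 line gave 3 to 39 genes, 39 without GSCLC1, 3 without GSCLC4, 5 without GSC1 and 12 without GSC2. The lone line of a type is there assumed to vary like the others.

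The median log2 difference of S phase genes, -0.03, ranged from -0.15 to 0.25 over the alternatives and that of G2/M genes, 0.03, from -0.07 to 0.28. The G2/M median moved beyond the spread between lines to 0.27 with GSC1 serials 65 to 80 alone and to 0.28 without GSCLC1, and leaving out 1 line gave -0.066 to 0.28. The correlation of the 2 levels moved in GSCLC4 to 0.36 without the 2 cells farthest in S phase level and to 0.36 without the 2 lowest in both sets. In GSC2 it moved to 0.22 as a Spearman value, 0.30 without the farthest cells and 0.042 without the lowest. It ranged from -0.09 to 0.32 in GSCLC1 and from 0.15 to 0.53 in GSC1. The causes were not tested. No paired analysis was possible because the lines carry no shared replicate numbers.

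Among these data, 5 RPM stands for about 10 to 30 reads, and each type has 2 lines, which limits what the test can call.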
